A study of Mus musculus with 4 samples.

Results

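The marrow niche factors are 9 secreted or membrane-bound proteins of bone marrow stroma, taken from the expression table by their gene symbols: Kitl, Angpt1, Lepr, Csf1, Tnfsf11, Tnfrsf11b, Il7, Il34 and Jag1. All 9 were among the 21881 genes listed, and 6 of them averaged 1 FPKM or more, the filter for testing (11346 genes passed). FPKM scales a gene's sequenced fragments to the length of its transcript and to the size of the library. The cells were immortalised mesenchymal stem cell lines grown from 1 cell each, from adult bone marrow of C57BL/6 mice, with an intact floxed Dicer gene (Dicer f/f) in every sample. Clone 12 and clone 6 each received a puromycin-selectable retrovirus, pMMP-puro, that either carried Flag-HA-NR6A1 or was empty. This gave 2 NR6A1 libraries and 2 vector libraries, 1 for each clone and virus, all of polyadenylated RNA. NR6A1 is a nuclear receptor without a known ligand that is best known for silencing genes in the early embryo and in germ cells, and the virus drives it in adult cells.

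Marrow stromal cells feed and hold blood cells through a small set of signals. KITL, the ligand of the KIT receptor, and ANGPT1, the ligand of TIE2 (gene Tek), act on blood stem cells, JAG1 activates Notch receptors, and IL7 is needed for B and T cell development. Osteoclasts, the cells that resorb bone, form from blood precursors when stroma supplies CSF1 or IL34, both ligands of CSF1R, together with RANKL (gene Tnfsf11), while the decoy receptor osteoprotegerin (Tnfrsf11b) captures RANKL. The leptin receptor, LEPR, marks the perivascular stroma of adult marrow that makes much of the niche KITL.

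The start-site sequences of the 2 most abundant factors and of the least abundant one are shown because their levels lay farthest apart. They are the 250 bases before the annotated start of each gene, from RefSeq on GRCm38.p6, a later build than the mm9 of the expression values. Capitals mark a GC box (GGGCGG) or a TATA motif (TATAAA) on either strand.
Csf1, chr3:107760470-107760719, minus strand: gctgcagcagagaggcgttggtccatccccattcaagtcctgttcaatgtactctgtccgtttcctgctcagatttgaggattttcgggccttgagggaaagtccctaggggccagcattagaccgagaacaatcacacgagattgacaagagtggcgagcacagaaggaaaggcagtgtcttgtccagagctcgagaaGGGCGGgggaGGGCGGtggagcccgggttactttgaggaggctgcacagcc
Kitl, chr10:100015571-100015820, plus strand: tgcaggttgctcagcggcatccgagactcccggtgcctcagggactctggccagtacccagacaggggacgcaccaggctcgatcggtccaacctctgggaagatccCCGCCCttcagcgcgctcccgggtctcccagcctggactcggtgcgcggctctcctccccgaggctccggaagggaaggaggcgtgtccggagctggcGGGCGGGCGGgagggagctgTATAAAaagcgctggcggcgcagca
Tnfsf11, chr14:78308044-78308293, minus strand: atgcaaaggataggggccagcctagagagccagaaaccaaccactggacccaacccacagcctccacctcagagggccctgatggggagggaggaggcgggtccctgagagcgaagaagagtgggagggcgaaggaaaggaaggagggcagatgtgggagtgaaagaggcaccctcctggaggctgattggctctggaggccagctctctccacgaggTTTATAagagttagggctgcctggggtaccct
Csf1 held 2 GC boxes and no TATA motif. Kitl held 3 GC boxes, of which 2 overlap, and a TATA motif that begins 25 bases before the start. Tnfsf11 held no GC box and a TATA motif on the opposite strand, printed as TTTATA from 32 bases before the start. Of all 32851 windows of this length, 32.7% held a GC box and 12.4% a TATA motif. The repeat that NR6A1 is known to bind, AGGTCA followed directly by a second AGGTCA, lay on either strand in none of the 6 windows listed for 5 members (Csf1, Kitl, Tnfsf11, Jag1 and Lepr) and in 2 of the 32851. A lone AGGTCA lay in none of the 6 either, against 4607 of all 32851 windows.

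Nr6a1 itself checked the labels. It was at 598 and 783 FPKM in the NR6A1 libraries (clone 12 and clone 6), against 2.80 and 4.18 FPKM with vector. Depth inferred from the steps between low values was 20.4 and 21.1 M reads for NR6A1 and 22.9 and 24.2 M for vector (M, 1e6). Markers of fibroblasts and mesenchymal stem cells summed to 4613 to 6365 FPKM, with 10 of 11 past the filter. The exception was Thy1 (CD90), at 0.0297 FPKM or less in every library. Osteoblast markers summed to 9.46 and 22.1 FPKM in clone 12 (NR6A1 and vector) and to 294 and 709 FPKM in clone 6. The 7 endothelial markers summed to at most 0.340 FPKM. Of 11 blood cell markers 1 passed the filter, Cd34, which was at 9.99 and 0.131 FPKM with NR6A1 and 13.9 and 0.116 FPKM with vector, and the pan-leukocyte gene Ptprc was at 0.0234 FPKM or less. Of 8 osteoclast markers listed, the broadly expressed Nfatc1 alone passed.

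The cells made CSF1 and KITL messages in quantity, ANGPT1 at a moderate level and almost no RANKL or leptin receptor message. Csf1, the main growth factor of macrophages and osteoclast precursors, had the highest mean of the 9, 262 FPKM over the 4 libraries, and ranked 361 among the 21881 genes. Kitl averaged 38.4 FPKM (rank 3117) and Angpt1 12.2 FPKM (rank 6880). Il34 followed at 5.85 FPKM, Jag1 at 3.18 and Il7 at 2.20. Tnfrsf11b averaged 0.901, Lepr 0.0552 and Tnfsf11 0.0139 FPKM.

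In this order Csf1 stood above Kitl, Kitl above Angpt1, and Tnfrsf11b above Lepr in every library, with ranges that did not overlap. Angpt1 and Il34 were separated only narrowly, with the lowest Angpt1 value at 10.64 FPKM and the highest Il34 value at 10.55. The ranges of Il34 and Jag1, of Jag1 and Il7, and of Il7 and Tnfrsf11b overlapped. Il34 exceeded Jag1 in 2 of the 4 libraries, those of clone 12. Among the receptors of these factors, Kit reached at most 0.00364 FPKM, Tek 0.0212, Tnfrsf11a (the RANKL receptor) 0.0230 and Csf1r 0.477, and Il7r was listed at 0 in all 4 libraries. Receptors of JAG1 were present in the cells themselves, with Notch2 at 15.6 and 17.2 FPKM with NR6A1 (clone 12 and clone 6) and 15.4 and 19.1 FPKM with vector. Notch1 was at 4.90 and 4.41 FPKM with NR6A1 and 5.08 and 3.67 FPKM with vector, Notch3 reached at most 3.01 FPKM and Notch4 0.237 FPKM.

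**Figure D1:**
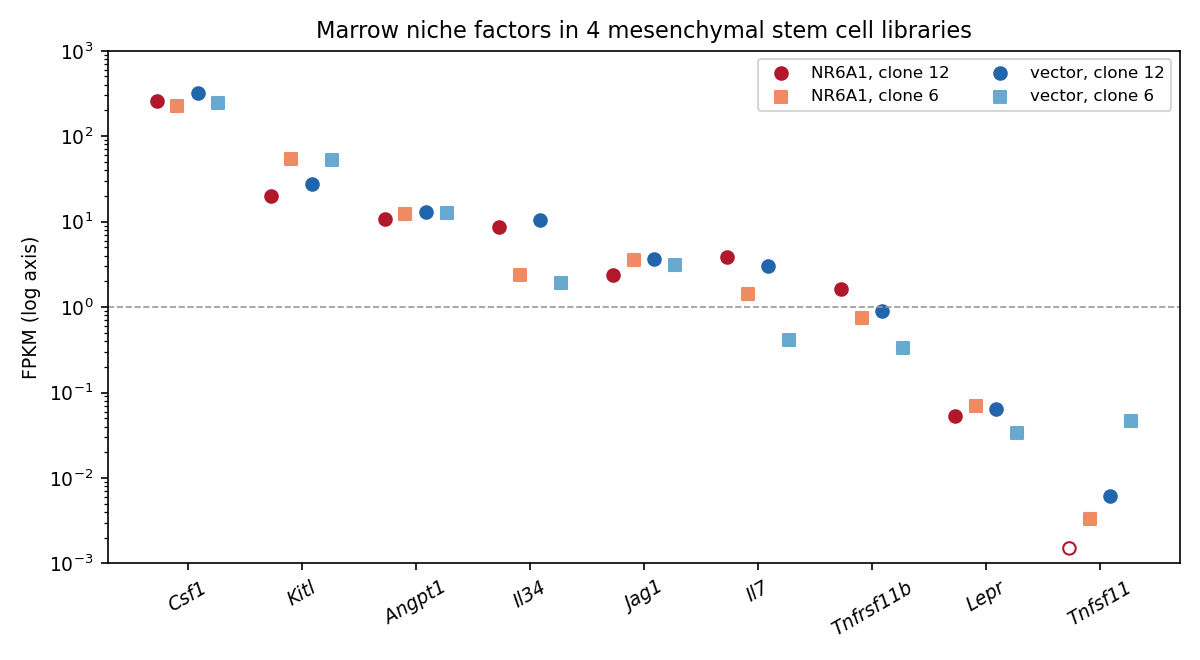
FPKM of the 9 niche factors on a log axis, with 1 point per library, ordered by mean. Colours give the virus (red and orange NR6A1, blue vector), circles are clone 12 and squares clone 6, and the open circle drawn near the foot of the axis is the Tnfsf11 value listed at 0; the dashed line is the filter of 1 FPKM. Csf1 lies between 224 and 321 FPKM, and all 4 Lepr values and all 4 Tnfsf11 values lie at 0.0703 FPKM or less.

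The first comparison asked whether raising NR6A1 in adult stroma alters its niche signals. None of the 6 factors tested passed limma's threshold (Benjamini-Hochberg adjusted p under 0.05 over all genes), where 0.0353% of all 11346 genes did, and none had an unadjusted p under 0.05 (8.48% of all genes did). Without 196 short RNA genes, whose FPKM are unstable, none passed either (0.457% of 11150 genes did), and 2 of the 6, Csf1 and Il7, had an unadjusted p under 0.05 (10.2% of those genes did). Of the 6, Csf1 and Angpt1 were lower in both clones (29.4% of all genes were), Il7 was higher in both (28.9%), and Kitl, Il34 and Jag1 moved in opposite directions (41.1%). Their median change was -0.16 on the log2(FPKM + 1) scale, 0.00098 over all genes tested, and the median size of change was 0.18 against 0.10.

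For the blood stem cell factors, Kitl was at 19.8 and 54.5 FPKM in the NR6A1 libraries of clone 12 and clone 6, against 27.4 and 52.0 FPKM in the vector libraries. The clones differed more than the viruses, and the groups overlapped. The change in log2(FPKM + 1) was -0.19 ± 0.15 (SE, n = 2 libraries a group, limma adjusted p = 0.718), with a 95% interval of -0.61 to 0.22. Angpt1 was at 10.6 and 12.3 FPKM with NR6A1, against 12.9 and 12.7 FPKM with vector. Both NR6A1 values lay below both vector values, which held for 10.7% of all genes tested. The difference was small, -0.15 ± 0.10 log2 units (SE, limma adjusted p = 0.682, 95% interval -0.42 to 0.12). Jag1, a membrane ligand that signals to a touching cell, was at 2.35 and 3.53 FPKM with NR6A1 and 3.70 and 3.11 FPKM with vector, and its groups overlapped. Its change was -0.17 ± 0.20 log2 units (SE, limma adjusted p = 0.797, 95% interval -0.74 to 0.39).

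Il7, the lymphoid factor, gave the largest estimate of the 6. It was at 3.87 and 1.43 FPKM with NR6A1, against 3.06 and 0.415 FPKM with vector. Within a clone the NR6A1 library was the higher one, by 1.27-fold in clone 12 and 3.45-fold in clone 6, while the groups overlapped across clones. About 367 and 141 reads stood behind the NR6A1 values and about 326 and 46.7 behind the vector values, if all came from the longest annotated transcript. The change was 0.52 ± 0.20 log2 units (SE, limma adjusted p = 0.617, 95% interval -0.04 to 1.09). Without short RNA genes the adjusted p was 0.442. The change was 0.95 with a pseudocount of 0.1 and 0.19 with one of 5, and without the vector library of clone 6 it turned to -0.24 in a fit that has no clone block.

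Among the osteoclast factors, Csf1 was at 259 and 224 FPKM with NR6A1 and 321 and 245 FPKM with vector. The NR6A1 library was the lower one within each clone, at 0.808 of the vector level in clone 12 and 0.917 in clone 6. The change was -0.22 ± 0.08 log2 units (SE, limma adjusted p = 0.617), and its 95% interval ran from -0.45 to 0.02. Il34, the second ligand of CSF1R, was at 8.60 and 2.34 FPKM with NR6A1 and 10.6 and 1.91 FPKM with vector. It was lower in clone 12 and higher in clone 6, so that its mean change was -0.03 ± 0.16 log2 units (SE, limma adjusted p = 0.963, 95% interval -0.48 to 0.41).

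Tnfrsf11b, the RANKL decoy, fell short of the filter and stood outside the test. It was at 1.64 and 0.740 FPKM with NR6A1, against 0.897 and 0.329 FPKM with vector. The ratio of NR6A1 to vector was 1.82 in clone 12 and 2.25 in clone 6, although the NR6A1 value of clone 6 lay below the vector value of clone 12. About 87.0 and 40.7 reads stood behind the NR6A1 values and about 53.6 and 20.8 behind the vector values. In a fit with no filter on low values its change was 0.43 ± 0.04 log2 units (SE, limma adjusted p = 0.675, unadjusted p = 0.0158). The variance trend of that fit also takes in genes near 0, so this SE can understate the counting error of so few reads.

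Its ligand gene Tnfsf11 was listed at 0 and 0.00332 FPKM with NR6A1 and at 0.00611 and 0.0461 FPKM with vector. Both NR6A1 values were the lower ones. Since 1 read on this gene is worth 0.0204 to 0.0242 FPKM, the highest value stood for about 2.26 reads and the others for less than 1, and a difference was not detectable at this depth. The ratio of Tnfsf11 to Tnfrsf11b was at most 0.140 in any library, so that per length the osteoprotegerin message exceeded the RANKL message in all 4. Lepr was at 0.0526 and 0.0703 FPKM with NR6A1 and 0.0647 and 0.0333 FPKM with vector, or about 4.29 to 7.91 reads a library. At such numbers a difference was not detectable, and the message that marks niche stroma in adult marrow was nearly missing from both lines. Of 11 other genes listed for this stroma, 9 passed the filter, as did 11346 of all 21881 genes. Cxcl12, a chemokine of the same stroma, was at 107 and 209 FPKM with NR6A1, against 137 and 249 FPKM with vector (log2 change -0.30 ± 0.07, SE, limma adjusted p = 0.467).

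**Figure D2:**
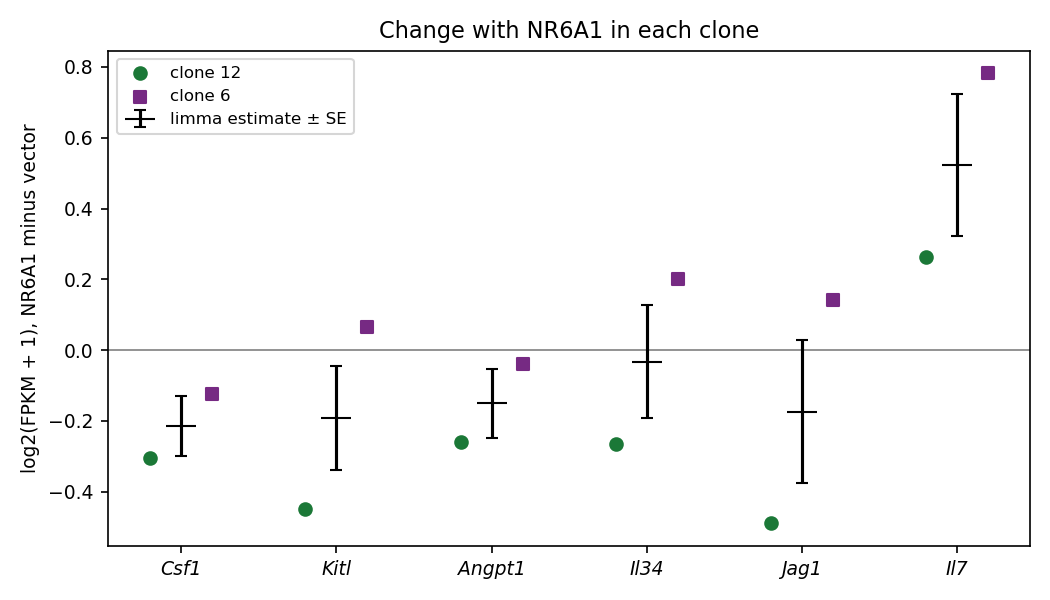
Difference in log2(FPKM + 1), NR6A1 minus vector, of the 6 factors tested. Circles are clone 12, squares clone 6, and black bars the limma estimate ± SE. Csf1 and Angpt1 lie below 0 and Il7 above 0 in both clones, while the clones fall on opposite sides of 0 for Kitl, Il34 and Jag1; no factor passed the threshold.

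The second comparison set the lines against each other, each with its NR6A1 and its vector library. No other lines were at hand, so its p-values do not measure the spread between lines. Il34 and Il7 were higher and Kitl was lower in clone 12 than in clone 6, so 3 of the 6 factors tested passed (21.9% of all 11346 genes did, 11.5% higher and 10.5% lower), and without short RNA genes Csf1 made it 4 (31.2% of 11150 did). The clones did not overlap for these 4 factors, as for 68.0% of all genes tested. For 4 of the 6 the difference between clones was larger in size than the change with NR6A1, as for 73.8% of all genes. These shares place the factors among many genes that differ between the lines. In bulk libraries such as these, fewer cells of a type and less RNA per cell cannot be told apart.

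Il34 was at 8.60 and 10.6 FPKM in clone 12 (NR6A1 and vector), against 2.34 and 1.91 FPKM in clone 6. Clone 12 was 3.67-fold higher with NR6A1 and 5.53-fold higher with vector. The difference was 1.76 ± 0.16 log2 units (SE, limma adjusted p = 0.0180), and it was 1.03 with a pseudocount of 5. Il7 was at 3.87 and 3.06 FPKM in clone 12, against 1.43 and 0.415 FPKM in clone 6, a difference of 1.26 ± 0.20 log2 units (SE, limma adjusted p = 0.0312). It was 1.99 with a pseudocount of 0.1 and 0.52 with one of 5, and without a virus term its adjusted p was 0.0616.

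Kitl went the other way, with 19.8 and 27.4 FPKM in clone 12 and 54.5 and 52.0 FPKM in clone 6. Clone 12 held 0.364 of the clone 6 level with NR6A1 and 0.526 with vector (log2 difference -1.16 ± 0.15, SE, limma adjusted p = 0.0237). Csf1 was at 259 and 321 FPKM in clone 12 and 224 and 245 FPKM in clone 6, a difference of 0.30 ± 0.08 log2 units (SE, limma adjusted p = 0.0786, and 0.0482 without short RNA genes). Angpt1 (-0.08 ± 0.10) and Jag1 (-0.12 ± 0.20) differed by about their standard errors, with 95% intervals of -0.36 to 0.19 and -0.69 to 0.45 log2 units.

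Ratios between factors are given as a description, with no test. Csf1 exceeded Il34, the other ligand of its receptor, by 30.1-fold and 30.4-fold in clone 12 (NR6A1 and vector), against 95.7-fold and 128-fold in clone 6. The ratio of Csf1 to Kitl was 13.1 and 11.7 in clone 12, against 4.12 and 4.70 in clone 6. The ratio of Tnfsf11 to Tnfrsf11b, which rests on a few Tnfsf11 reads at most, was 0 and 0.00681 in clone 12 and 0.00448 and 0.140 in clone 6, and these overlap. Tnfrsf11b, under the filter, was at 1.64 and 0.897 FPKM in clone 12 and 0.740 and 0.329 FPKM in clone 6, which do not overlap. In the fit with no filter on low values the difference was 0.56 ± 0.04 log2 units (SE, limma adjusted p = 0.189, unadjusted p = 0.0103). As for its change with NR6A1, this SE can understate the counting error. Markers of other cell types moved with the line too. The 7 osteoblast markers summed to 9.46 and 22.1 FPKM in clone 12 (NR6A1 and vector) and 294 and 709 FPKM in clone 6. Of the 5 past the filter, 4 were lower (10.5% of all genes tested were) and 1 higher (11.5%) in clone 12 (limma adjusted p under 0.05). The 7 adipocyte markers summed to 118 and 131 FPKM in clone 12 and 215 and 372 FPKM in clone 6. Both past the filter were lower in clone 12 (10.5% of all genes tested were). The log2 difference was -1.32 for Fabp4 (limma adjusted p = 0.0437) and -0.83 for Lpl (0.0195). Adipoq, the adipocyte hormone adiponectin, was at most 0.319 FPKM. The 11 blood cell markers summed to 10.3 and 14.5 FPKM in clone 12 and 0.979 and 1.22 FPKM in clone 6, nearly all of it Cd34 in clone 12. Each line was grown from 1 cell, and any link of these markers to the differences of Kitl, Il34 and Il7 was not tested.

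Leaving out any 1 library gave fits that lose a block and pool the remaining spread. The difference then ran from 1.62 to 1.89 for Il34, from 0.87 to 1.65 for Il7 and from -1.38 to -0.93 for Kitl. Since the clones do not overlap for these factors, the direction could not change in such fits. Over those fits the adjusted p ran from 0.0428 to 0.122 for Il34, from 0.0478 to 0.242 for Il7 and from 0.0859 to 0.0974 for Kitl. Il34 and Il7 passed without the NR6A1 library of clone 6 and lost the call without each of the other libraries. Kitl lost it without any of the 4.

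**Figure D3:**
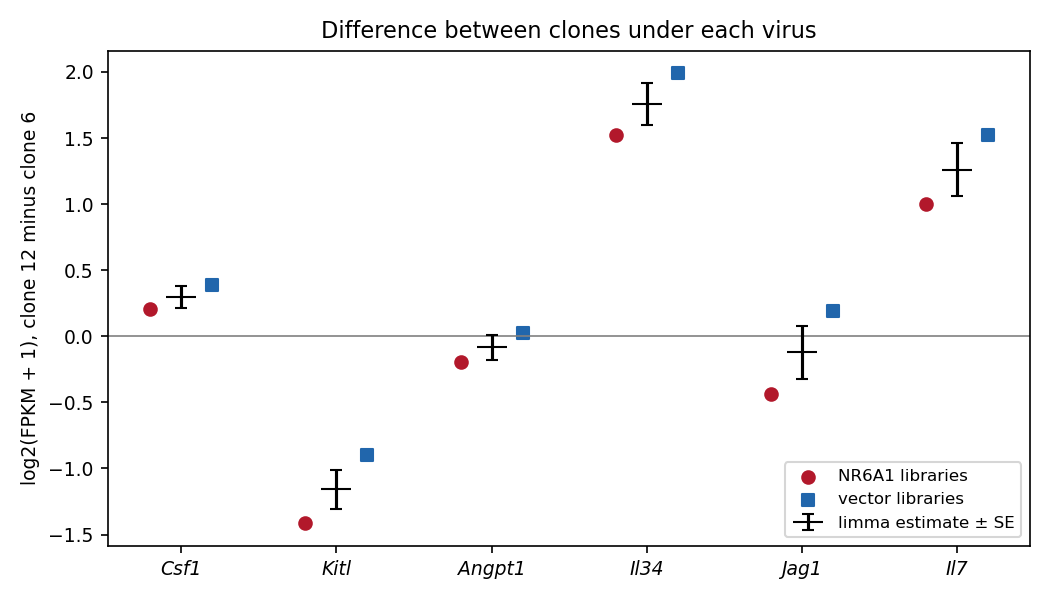
Difference in log2(FPKM + 1), clone 12 minus clone 6, of the 6 factors tested. Red circles are NR6A1 libraries, blue squares vector libraries, and black bars the limma estimate ± SE. Il34 and Il7 lie above 0 and Kitl below 0 under both viruses, by 0.90 to 1.99 log2 units in size, while Angpt1 and Jag1 straddle 0.

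For each factor that spanned at least 1 log2 unit over the libraries, the 2 genes of nearest pattern were named by the distance between centred log2(FPKM + 1) values over 4 libraries. Kitl was nearest to Ggt5 (distance 0.0947 log2 units) and Htatip2 (0.155). Il34 was nearest to Scn3a (0.0948) and Lrrc8d (0.0974). Il7 was nearest to Cda (0.0894) and Hbegf (0.102). Hbegf, a growth factor of the EGF family, was at 23.1 and 12.0 FPKM with NR6A1 (clone 12 and clone 6) and 19.7 and 6.61 FPKM with vector. With 4 libraries and 2490 genes past the threshold between the lines, close patterns are common, and the likeness is a description.

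Around the niche factors, 7 lists of genes were counted: receptors and partners, other blood cell factors, other osteoclast regulators, upstream regulators of RANKL and osteoprotegerin, shedding proteases with their inhibitor, Notch processing and targets, and leptin receptor positive stroma. Of their 68 genes tested, 0 passed limma's threshold between NR6A1 and vector over all genes, where 0.0353% of all genes did. An unadjusted p under 0.05 was seen for 14 of the 68 (8.48% of all genes had one). Without short RNA genes 1 passed (0.457% of those genes did). The lists were chosen with earlier results of these data known. For the counts by direction in each list, 28.9% of all genes tested were higher in both lines and 29.4% were lower. The receptor list had 6 of 15 genes tested, of which 1 was higher under NR6A1 in both lines and 0 were lower. Its median change was -0.05 log2 units. Its most abundant gene was Sdc1, a proteoglycan that can bind IL34, at 37.2 and 41.4 FPKM with NR6A1 and 36.96 and 36.4 FPKM with vector. The other blood cell factors had 11 of 23 tested. In both lines 3 of these were higher and 2 lower, and their median was 0.03. Spp1, the matrix protein osteopontin, was the most abundant, at 1157 and 409 FPKM with NR6A1 and 1794 and 254 FPKM with vector, in opposite directions in the clones.

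Of 9 other osteoclast regulators tested, 4 were higher in both lines and 2 were lower (median -0.03). Lgals9, a galectin, was the most abundant of them, at 114 and 80.3 FPKM with NR6A1 and 105 and 43.3 FPKM with vector. Of the 16 upstream regulators tested, 7 were higher in both lines (28.9% of all genes were) and 8 were lower (29.4%). Their median was -0.03, with changes of both signs. The most abundant, the stress-response factor gene Atf4, was at 367 and 279 FPKM with NR6A1 and 429 and 328 FPKM with vector. Vdr and Pth1r, the receptors through which vitamin D and parathyroid hormone raise RANKL, were picked after their values were seen. Vdr was at 20.3 and 30.1 FPKM with NR6A1 and 14.3 and 19.6 FPKM with vector, higher within each clone (log2 change 0.54 ± 0.08, SE, limma adjusted p = 0.264). Pth1r was at 0.191 and 15.4 FPKM with NR6A1 and 0.197 and 52.2 FPKM with vector. It was near 0 in clone 12 under either virus, and its change was -0.85 ± 0.44 log2 units (SE, limma adjusted p = 0.646).

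The 1 gene that passed without short RNA genes was Timp3, which inhibits metalloproteases, among them the ADAM enzymes that shed membrane-bound ligands. It was at 69.7 and 104 FPKM with NR6A1 and 39.5 and 58.5 FPKM with vector. Its change was 0.81 ± 0.07 log2 units, almost equal in clone 12 (0.80) and clone 6 (0.81), with a limma adjusted p of 0.142 over all genes tested and 0.0304 without short RNA genes. In all, 3 of the 8 genes tested of this list were higher in both lines and 1 was lower (median 0.09). Of 9 Notch genes tested, 3 were higher and 2 lower (median 0.07), with Ncstn, a subunit of gamma-secretase, the most abundant at 29.8 and 33.6 FPKM with NR6A1 and 29.9 and 28.2 FPKM with vector.

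Lfng, a sugar transferase that alters how Notch answers JAG1, was picked after its values were seen. It was at 4.22 and 31.8 FPKM with NR6A1 and 7.22 and 60.6 FPKM with vector, lower within each clone by a similar amount (-0.66 in clone 12 and -0.91 in clone 6). The change was -0.78 ± 0.10 log2 units (SE, limma adjusted p = 0.229, and 0.0658 without short RNA genes). Between the lines it was lower in clone 12 by -2.78 ± 0.10 log2 units (SE, limma adjusted p = 0.00544). Of the 9 stroma genes tested, 3 were higher in both lines and 4 were lower (median 0.02). Of the 19 markers of cell identity tested, 0 passed limma's threshold over all genes (0.0353% of all genes did; 3 of the 19 had an unadjusted p under 0.05) and 3 passed without short RNA genes (0.457% did). Alpl, a bone alkaline phosphatase, had a log2 change of -1.22 ± 0.08 (SE), with a limma adjusted p of 0.0922 over all genes and 0.0132 without short RNA genes. For Ly6a (Sca-1) the change was -1.14 ± 0.12 (SE, limma adjusted p = 0.169 and 0.0304), and for Col3a1, a fibrillar collagen, 0.70 ± 0.07 (SE, limma adjusted p = 0.169 and 0.0453).

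**Figure D4:**
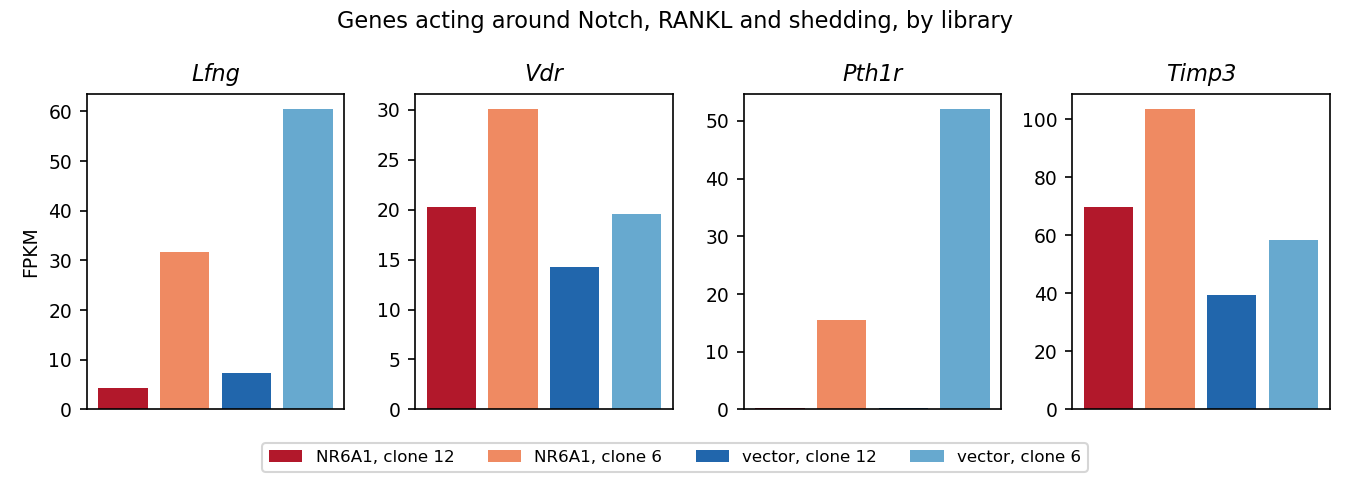
FPKM of Lfng, Vdr, Pth1r and Timp3, with 1 bar per library on linear axes that start at 0 and differ between panels. Red and orange bars are NR6A1 libraries and blue bars vector libraries, clone 12 before clone 6. Timp3 and Vdr are higher and Lfng is lower with NR6A1 within each clone, and Pth1r is above 0.2 FPKM only in clone 6.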

How the data were processed

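The deposited values are FPKM, 1 per gene and library, made by the authors from 4 mRNA libraries. TopHat 1.2.0, Cufflinks 1.0.3 and mm9 were used, per the submitters' processing notes; which annotation was used, and whether strand was, is not given in the sources used here. Fragments of overlapping genes can be shared in such values, and FPKM of short RNA genes are unstable.

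Values were tested as log2(FPKM + 1) for genes averaging 1 FPKM or more. This scale understates changes of weakly expressed genes. Two-sided tests used limma 3.58.1 (R 4.3.3) with a variance trend, virus and clone as terms and Benjamini-Hochberg adjustment over all genes at 0.05. Clone is a block because, per the labels' protocols, each line received both viruses. The fit has 1 residual degree of freedom and a prior of 2.90. For NR6A1 against vector, p-values therefore rest on how alike 2 lines behave and, more heavily, on the spread of all genes of similar level. Between the clones, with 1 line on each side, they rest on how alike the difference is under the 2 viruses and on the same borrowed spread. Neither measures the spread between cultures. An exact permutation test of 2 against 2 cannot go below 0.333.

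Depth was inferred from 1823 genes with 1 transcript length of at least 1500 bases (GENCODE M21), taking 1 read as inversely proportional to length minus 210 bases. Under 10 reads, 50.1% to 52.7% of the values came within 0.1 of whole reads, where chance gives 20% at a depth fixed beforehand. The depths and the 210 bases were those that made this share highest, so it can overstate the match. Read numbers are therefore estimates, cover counting error only, and no count test was run.

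The 9 members, the lists and the naming rule were chosen with earlier results of these data known. The rule took all members, Nr6a1, genes of a list past the threshold or otherwise its most abundant gene, and the 2 nearest genes of a member. Lfng, Vdr, Pth1r, Thy1, Cd34, Ptprc, Nfatc1, Fabp4, Lpl, Adipoq and the receptors other than Sdc1 were named outside it. Alternatives were other pseudocounts, filters, scalings and priors, no trend, no short RNA genes, no block and each library left out.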

Additional observations from a re-analysis of the deposited data

Results flagged for a closer look

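Some changes with NR6A1 ran in opposite directions in the clones. With 1 library per clone and virus the difference was not tested, and 41.1% of all genes tested show it. As the clone 12 change minus the clone 6 change in log2(FPKM + 1), it was -0.51 for Kitl (-0.45 in clone 12 and 0.06 in clone 6), -0.47 for Il34 (-0.27 and 0.20) and -0.63 for Jag1 (-0.49 and 0.14). For Lepr it was -0.0673 (-0.0165 and 0.0509), at a level of under 10 reads a library. Outside the niche factors it was -1.32 for Spp1 (-0.63 and 0.69), -0.25 for Ncstn (-0.0079 and 0.24) and -0.45 for Cd34 (-0.43 and 0.02).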

How the results depend on the processing

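Between NR6A1 and vector, 4 genes passed limma's threshold. That count was 7 with a pseudocount of 5, 38 with a robust prior, 51 without short RNA genes and 0 with no filter (1468 at an unadjusted p under 0.05). With a library left out it was 0 to 0 (96 to 286 unadjusted), in fits without a clone block, so those fits say nothing of stability. The no replicate block fit called 4 genes and changed no member's call. None of the 6 factors passed under any setting, and all kept their direction with 4 libraries. The filter at 5 FPKM left Jag1 and Il7 out. With 1 library left out the change ran from -0.90 to 0.52 for Kitl, -1.03 to 0.96 for Il34, -0.39 to 0.0438 for Jag1 and -0.24 to 1.28 for Il7. Csf1 (-0.41 to -0.02) and Angpt1 (-0.25 to -0.05) kept their sign, which for Angpt1 could not change because its groups do not overlap. Outside the members it ran from -1.38 to 1.44 for Spp1, -0.14 to 1.12 for Lgals9, -3.59 to 1.89 for Pth1r, -2.24 to 0.67 for Lfng, -0.78 to 0.18 for Cxcl12, -3.14 to 0.85 for Ly6a, -2.07 to 1.66 for Cd34 and -3.66 to 1.21 for Alpl.

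Between clone 12 and clone 6, 2490 genes passed, 1581 with no trend, 0 with no filter (4587 unadjusted), and 41 to 889 with a library left out. With no filter Il34, Il7 and Kitl lost their calls (adjusted p 0.196, 0.224 and 0.226). With 1 library left out Angpt1 ran from -0.21 to 0.0455 and Jag1 from -0.37 to 0.12. The cause of these losses was not tested. Depth limits Lepr and Tnfsf11, at a few reads or less.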
